A study of Gelatoporia subvermispora and Trametes versicolor with 24 samples.

Results

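Whether antioxidants change gene expression differently in standing and in shaken cultures was examined in Gelatoporia subvermispora, a white-rot fungus. The question was addressed as the antioxidant effect in static culture minus the antioxidant effect in agitated culture, gene by gene. All 12 RNA sequencing libraries of strain FP-105752 were taken by their titles, of 24 libraries in the series, in 4 groups of 3. The groups were agitated without antioxidants, agitated with antioxidants, static without antioxidants and static with antioxidants. Every culture grew at 28 °C in a 250 mL flask, with 25 mL of defined medium (Czapek-Dox with cellobiose at 15 mM). Agitated flasks were shaken at 220 rpm and static flasks were left standing. All 4 groups received about 2 mM 4-hydroxybenzoate on day 10 and were harvested 24 h later, on day 11, so none of the groups is free of this aromatic acid. The antioxidant groups had also received α-tocopherol (1 mM) together with ascorbic acid (5 mM), both given 30 min before the 4-hydroxybenzoate. The effects of the 2 compounds therefore cannot be told apart. Whether replicates came from separate flasks is not stated in the labels. The p-values therefore measure only the spread between these libraries, which may be technical.

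White-rot fungi decay wood by attacking lignin, its aromatic polymer, with secreted oxidative enzymes and with peroxide made by the fungus itself. The small aromatic acids that lignin yields, 4-hydroxybenzoate among them, are taken up and metabolised. Shaking raises the supply of oxygen and keeps the mycelium in pellets, whereas standing cultures grow as mats. Ascorbic acid is a water-soluble and α-tocopherol a lipid-soluble scavenger of oxidants, so oxygen supply and antioxidants both bear on the redox state of the culture. A test of the difference between 2 effects is needed to say that an effect depends on the culture state. An effect called in one state and not called in the other may still be the same in both.

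The deposited tables pair no gene number with a name, a product or a sequence. The genes are therefore described by their numbers and by their responses, the identity of the fungus could not be checked against marker genes, and the gene lists considered could not be filled. The libraries held between 7875324 and 26653884 reads assigned to genes. In 2 groups 1 library stood apart. For replicate 3 of the agitated antioxidant group, the correlation across genes was 0.975 with replicate 1 and 0.972 with replicate 2, against 0.995 between those. For static replicate 1 without antioxidants, the shallowest library, it was 0.985 to 0.987 within the group and 0.99 with static antioxidant replicate 2. The median SD between replicates was 0.193 on the log2 CPM scale in agitated cultures with antioxidants, and 0.0811 without replicate 3. In the static group without antioxidants it was 0.148, and 0.0875 once replicate 1 was left out. The scaling factor of agitated antioxidant replicate 3 was 1.04, against 0.853 and 0.874 in replicates 1 and 2. The share of reads set aside for low mapping quality was 33.7 to 46.9% in agitated cultures without and 37.6 to 49.1% with antioxidants. In static cultures it was 35.0 to 40.8% without and 31.4 to 40.6% with antioxidants, and its part in the results was not tested.

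The antioxidant effect differed between static and agitated culture for 953 of 10529 tested genes, or 9.05%, in edgeR's quasi-likelihood test at an adjusted p under 0.05. The effect was more positive in static culture for 451 genes (4.28% of those tested) and more negative for 502 (4.77%). For 407 of the 451 genes antioxidants lowered expression in shaken cultures and gave no call in standing ones. For 424 of the 502 genes they raised it in shaken cultures, again with no call in standing ones. Over all tested genes, 10.6% were called as lowered and 11.6% as raised in shaken cultures, and only 0.456% were called in standing ones. The values are of bulk mycelium, so fewer hyphae in which a gene is active and less RNA per hypha cannot be told apart. The differences were mostly moderate: the median size among the called genes was 0.83 on the log2 scale, against 0.27 over all tested genes. At least 2-fold differences were called for 368 genes (3.5% of those tested), with 184 (1.75%) in each direction. Differences of at least 3 on the log2 scale were called for 5 genes with a more positive and 13 with a more negative static effect.

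The number of genes called depended on which libraries were in the fit. It was 1496 without agitated antioxidant replicate 3, and 2068 when static replicate 1 without antioxidants was left out as well. It was 504, 522 and 459 without replicates 1, 2 and 3 of the agitated cultures without antioxidants. It was 482 when static replicate 2 lacking antioxidants was left out and 589 when replicate 3 was, and without static antioxidant replicate 1 or 3 it was 541 and 617. A set of 379 genes, 193 with a more positive and 186 with a more negative static effect, was called with all libraries and again with each of the 12 libraries left out. With scaling by library totals alone 681 genes were called, 62.0% of them with a more positive static effect, against 47.3% as reported.

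**Figure D1:**
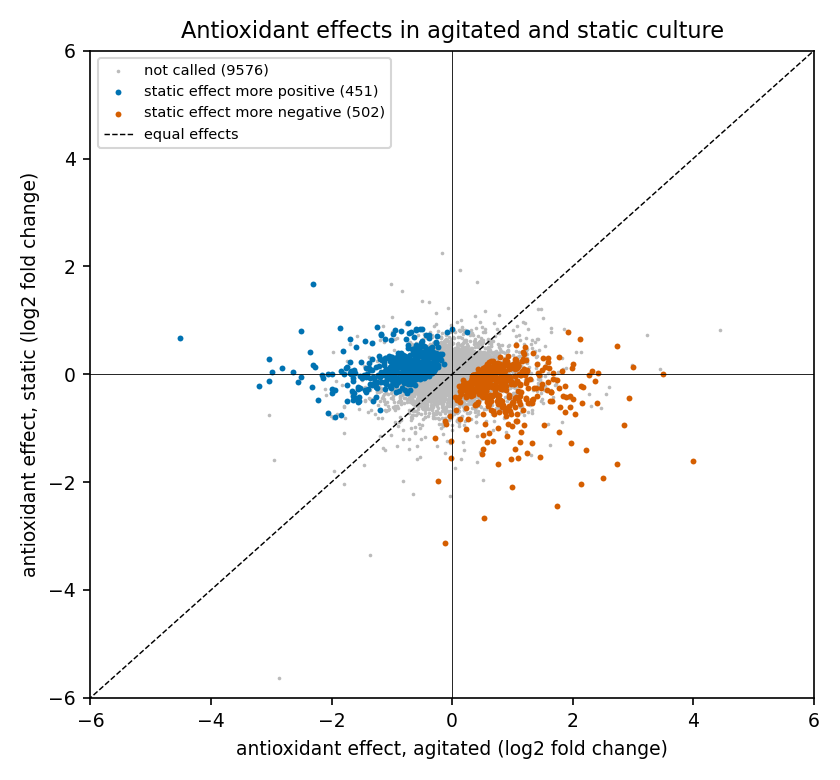
Antioxidant effect of each tested gene in agitated culture (horizontal axis) and in static culture (vertical axis), both as log2 fold changes, with the 451 and 502 genes called for the difference in colour. The called genes spread mostly along the horizontal axis, and the effect was larger in agitated culture for 850 of the 953. In static culture 811 of the 953 moved by under 0.5, while gene3033 moved by -3.13.

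For 850 of the 953 genes, or 89.2%, the effect in agitated culture was the larger one in size, as it was for 68.9% of all tested genes. That share lay between 79.6% and 92.5% when any 1 library was left out, and at 77.3% without both libraries that stood apart. The 451 genes had a median agitated effect of -0.72 and a median static effect of 0.11 on the log2 scale. The 502 genes had a median agitated effect of 0.68 and a median static effect of -0.13. Over all tested genes the median size of the effect was 0.24 in agitated and 0.12 in static culture. Of the called genes, 811 (85.1%) moved by under 0.5 on the log2 scale in static culture, against 93.3% of all tested genes, whereas 263 (27.6%) stayed under that size in agitated culture, against 79.2%.

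The replicates show the same arrangement. In agitated culture the libraries with and without antioxidants did not overlap for 895 of the 953 genes, or 93.9%, against 41.2% of all tested genes. In static culture they did not overlap for 351 of them, or 36.8%, against 18.2%. These shares describe genes that the same libraries selected. The 451 genes stood at a median of -0.65, -0.72 and -0.75 in agitated antioxidant replicates 1, 2 and 3, on the log2 scale relative to the mean of the agitated cultures without antioxidants. The 502 genes stood at 0.67, 0.66 and 0.63 in those libraries. In static antioxidant replicates 1, 2 and 3, relative to the static cultures without antioxidants, the corresponding medians were 0.12, 0.09 and 0.16 for the 451 genes and -0.16, -0.09 and -0.15 for the 502. The 3 libraries of each antioxidant group thus lay on the same side as one another. Over all tested genes the medians of the antioxidant libraries were -0.01 to 0. The medians of the called genes, too, come from the libraries that selected them, so this agreement is no separate support for the calls.

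**Figure D2:**
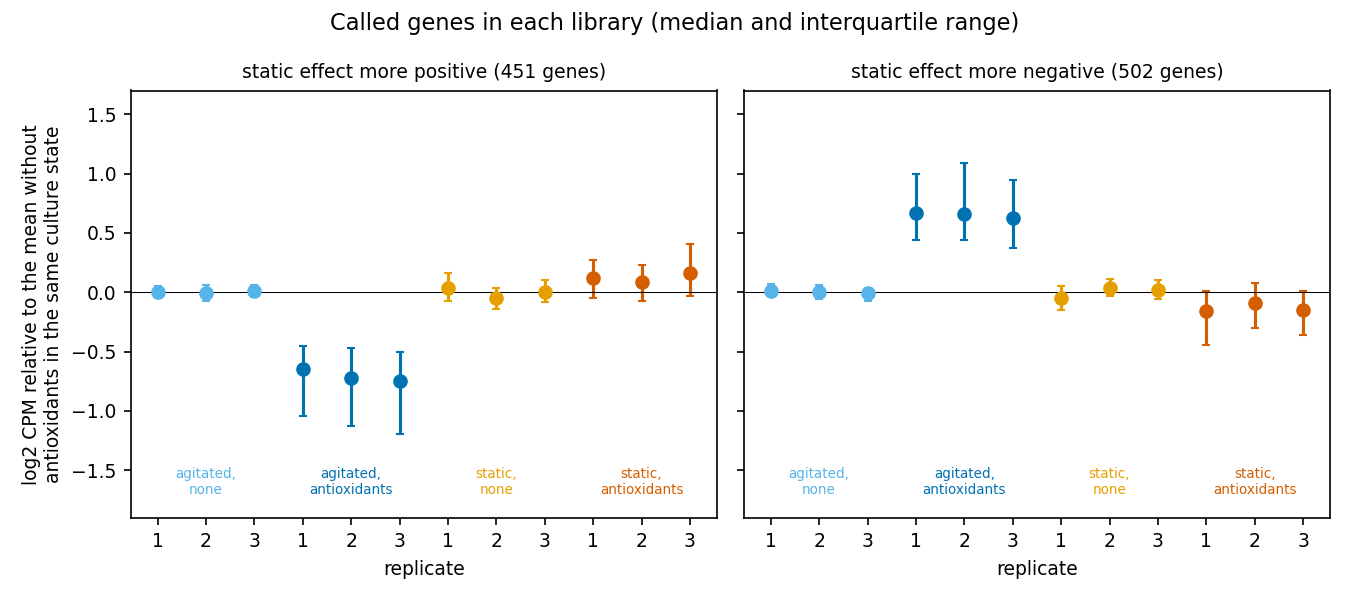
Median over the called genes (points) and the interquartile range over the genes (bars) in each of the 12 libraries, as log2 CPM relative to the mean of the cultures without antioxidants in the same state. The agitated antioxidant libraries lie between -0.65 and -0.75 for the 451 genes and between 0.63 and 0.67 for the 502, and the static antioxidant libraries lie within 0.16 of 0 in both panels.

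As shares of all gene reads, the 451 genes took 10.4%, 9.76% and 9.55% in the agitated libraries without antioxidants and 5.62%, 5.28% and 5.95% in those with them. In static libraries they took 6.53%, 6.13% and 6.17% without and 7.05%, 6.83% and 7.17% with antioxidants. The agitated cultures without antioxidants were thus the highest of the 4 groups for this set, with no overlap. The 502 genes took 4.96%, 4.77% and 4.57% of reads in agitated libraries without antioxidants and 7.49%, 8.72% and 7.62% with them. Their static shares were 6.10%, 6.20% and 6.21% without and 5.27%, 5.56% and 4.99% with antioxidants. For this set the agitated antioxidant libraries were the highest. The same libraries selected both sets, so the order of the groups describes the selected genes and is no separate support for the calls.

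Compared with the effects within each state, the direct test separated the responses more narrowly. Antioxidants changed 2343 genes (22.3% of those tested) in agitated culture and 48 (0.456%) in static culture. Of the 2343 genes, 848 (36.2%) were called for the difference, so 1495 of the agitated responses were not shown to depend on agitation. Those 1495 had a median effect size of 0.49 in agitated and 0.12 in static culture, against 0.74 and 0.15 for the 848. The static count was 90 with the replicate number as a block in the static libraries, and DESeq2 gave 248. It moved by more than 1.5 times without any library except agitated replicate 2 in either antioxidant group, with the lowest count, 10, without static antioxidant replicate 1 and the highest, 244, without agitated antioxidant replicate 3. The agitated count fell to 1438 and 1436 without replicates 1 and 3 of the cultures without antioxidants.

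By the calls in each state, the 953 genes fell into unequal classes. The largest held 424 genes raised in agitated culture and not called in static culture, with medians of 45.5 CPM without and 75.9 CPM with antioxidants when agitated, and 56.6 and 51.9 CPM when static. CPM is a gene's read count scaled to the size of its library. The next held 407 genes lowered in agitated culture and not called in static culture, at 75.0 and 39.1 CPM when agitated and 51.1 and 53.4 CPM when static. In agitated culture 11.6% of all tested genes were called as raised and 10.6% as lowered. Only static culture gave a call for 15 genes, 13 of them lowered and 2 raised there, where 0.361% of all tested genes were called as lowered and 0.095% as raised. Effects of opposite direction were called in both states for 13 genes, of which 9 rose when agitated and fell when static, and 4 did the reverse. The effects were called in the same direction but with different sizes for 4 genes. The other 90 genes were called for the difference alone, with median effect sizes of 0.38 in agitated and 0.50 in static culture.

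For a gene with a difference between effects, the group that stands apart can be any of the 4. Measured as the distance of a group's mean from the mean of the other 3 groups on the log2 CPM scale, an agitated group stood farthest for 848 of the 953 genes, or 89.0%, against 69.2% of all tested genes. The agitated antioxidant group was farthest for 440, being the lowest-lying for 201 genes and the highest-lying for 239. The agitated group without antioxidants was farthest for 408, above the others for 211 and below them for 197. A static group stood apart for 105 genes, of which 59 did so with antioxidants. Of those 59, 44 lay below the other groups. Agitated culture without antioxidants was thus the exception for 42.8% of the called genes and agitated culture with antioxidants for 46.2%. Over all tested genes the shares were 33.2% and 36.1%, so this near-equal division is not particular to the called genes.

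The same difference can be read as a change in the gap between static and agitated cultures. The gap was called for 48.3% of all tested genes without antioxidants, with static culture higher for 23.7% and lower for 24.5%. With antioxidants it was called for 50.1%, with static culture higher for 23.5% and lower for 26.6%. Of the 953 genes it was called for 64.1% without and 73.0% with antioxidants. It was called on both sides and reversed in direction for 97 genes, or 10.2%, against 0.921% of all tested genes. No tested gene outside the 953 had such a reversal, but the change in the gap is the tested difference itself. Here and below, the shares among the 953 describe genes selected by that same difference and are no separate support for the calls. Of the 97, 43 went from lower in static culture to higher, with medians of 79.7 CPM agitated and 45.3 CPM static without antioxidants, and 38.9 and 48.4 CPM with them. The other 54 went from higher in static culture to lower, from 40.3 CPM agitated and 53.5 CPM static to 69.7 and 54.3 CPM. A gap present without antioxidants was no longer called with them for 257 genes, or 27.0%, against 15.1% of all tested genes. They comprised 121 that had been lower and 136 that had been higher in static culture. The 121 had medians of 76.8 CPM agitated and 43.2 CPM static without antioxidants, and 43.3 and 43.6 CPM with them. The 136 had 32.3 and 52.8 CPM without, and 50.8 and 47.5 CPM with antioxidants. A gap called only with antioxidants was seen for 342 genes, or 35.9%, against 16.9% of all tested genes. It placed static culture higher for 138 and lower for 204. The 204 had 62.3 and 65.1 CPM without antioxidants and 105 and 51.8 CPM with them. In these classes the static medians moved less than the agitated ones. A gap called in one antioxidant state and not in the other is not by itself a test, but each of these genes also passed the direct one.

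Calls were more frequent among genes with more reads. With the tested genes in 5 equal bins by mean log2 CPM, 3.09% were called in the lowest bin, and the shares rose through 6.55%, 9.55% and 11.7% to 14.3% in the highest. The median SE of the difference fell from 0.40 on the log2 scale in the lowest bin to 0.15 in the highest. The called genes of the lowest bin had a median difference of 1.41, against 0.77 in the highest, and 58 of the 65 in the lowest bin differed by at least 2-fold. Among the 200 genes with the most reads, 37 (18.5%) were called, against 9.05% of all tested genes. Of the 37, 26 had a more positive and 11 a more negative static effect, against 451 and 502 over all tested genes. At least 2-fold differences were seen for 21 of the 37. CPM is not corrected for gene length. The 95% interval of the difference lay within 1 on the log2 scale on either side of 0 for 7114 genes, or 67.6% of those tested, while 348 genes with an estimate of at least that size were not called.

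Among genes with enough reads (mean log2 CPM not under 3), the most positive differences were those of gene3220 and gene522. gene3220 stood at 209, 164 and 217 CPM in agitated replicates 1, 2 and 3 without antioxidants, and at 14.01, 8.35 and 3.80 CPM with them. In static culture it stood at 3.82, 3.54 and 4.26 CPM without and 3.56, 5.32 and 10.3 CPM with antioxidants. It was thus high in a single group, and the static groups overlapped. The difference was 5.18 on the log2 scale (SE 0.62, edgeR adjusted p = 0.00109), from an agitated effect of -4.51 and a static effect of 0.67. gene522 stood at 2527, 2153 and 2445 CPM in agitated cultures without antioxidants and at 714, 382 and 351 CPM with them. Its static values were 31.4, 80.6 and 111 CPM without and 137, 123 and 455 CPM with antioxidants. The replicates did not overlap in either state, falling with antioxidants in agitated culture and standing higher with them in static culture. The agitated effect was -2.30 and the static effect 1.67, of which the static one was not called (edgeR adjusted p = 0.251). The difference was 3.97 (SE 0.78, edgeR adjusted p = 0.0119), and 3.10 (edgeR adjusted p = 0.0161) without static antioxidant replicate 3, the highest of its group.

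The most negative differences were those of gene6277 and gene3464. gene6277 stood at 114, 123 and 115 CPM in agitated cultures without antioxidants and at 846, 1272 and 229 CPM with them. In static culture it stood at 71.0, 95.3 and 113 CPM without and 26.7, 28.6 and 32.9 CPM with antioxidants. Antioxidants thus went with higher values in every agitated library and lower values in every static one. The difference was -4.41 (SE 0.64, edgeR adjusted p = 0.00313), made up of an agitated effect of 2.74 and a static effect of -1.67, of which the static one was not called (edgeR adjusted p = 0.183). gene3464 stood at 226, 219.8 and 242 CPM in agitated cultures without and 1237, 1659 and 147 CPM with antioxidants. Its static values were 284, 167 and 287 CPM without and 60.8, 51.2 and 67.4 CPM with antioxidants. Agitated antioxidant replicate 3 lay below all 3 libraries without antioxidants, while replicates 1 and 2 lay far above them. The difference was -4.19 (SE 0.87, edgeR adjusted p = 0.0157). It was -4.70 (edgeR adjusted p = 6.87e-06) without that library, and the call was lost with a replicate block within each state (edgeR adjusted p = 0.0625).

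**Figure D3:**
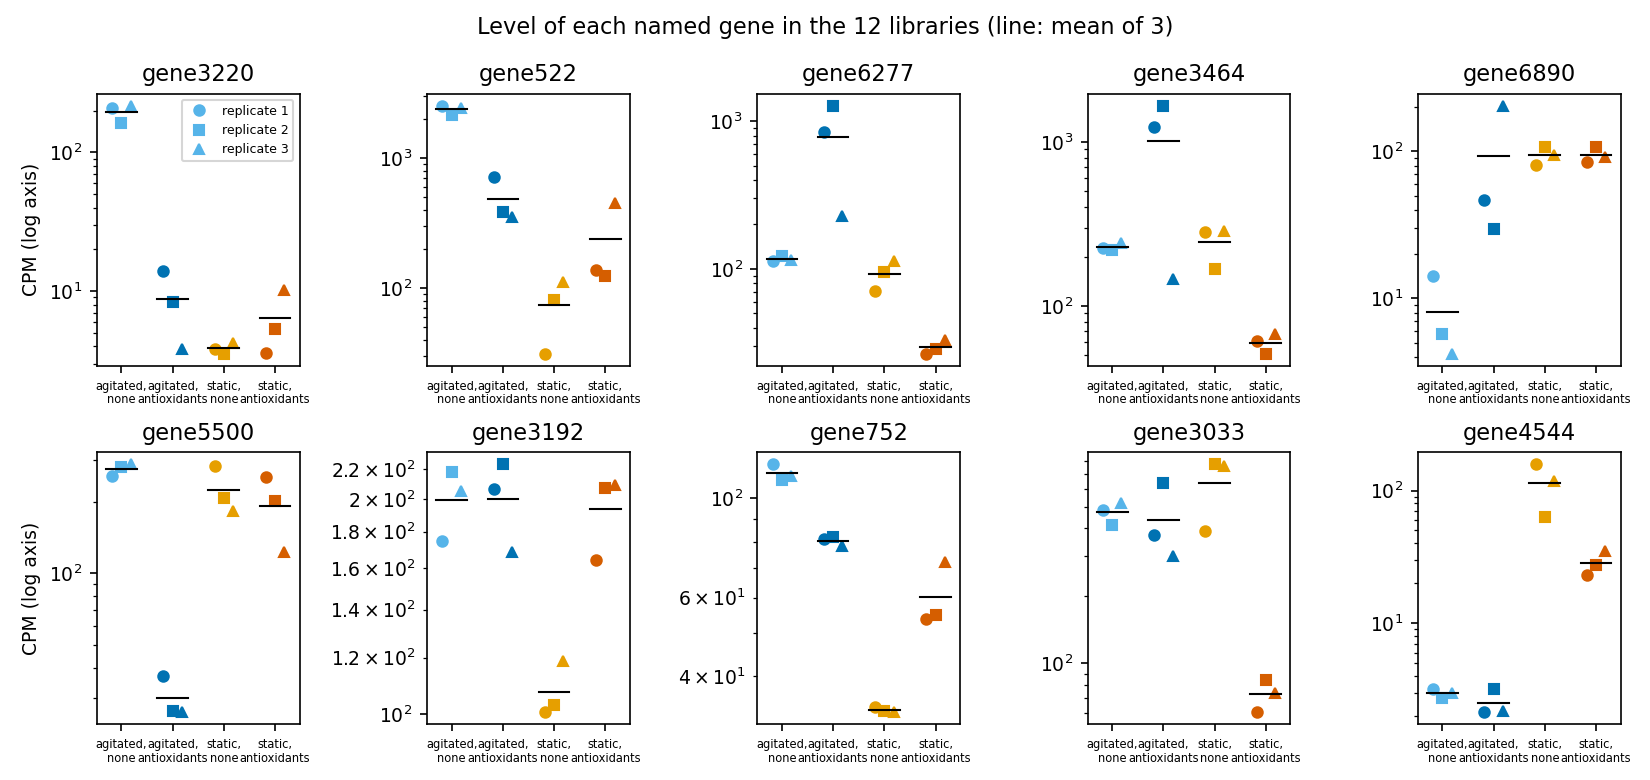
CPM on a log axis of the 10 genes named by size, in the 12 libraries, with replicates 1, 2 and 3 as circles, squares and triangles and a line at the mean of each group. gene3220 is high in the agitated group without antioxidants only (164 to 217 CPM), and agitated antioxidant replicate 3 of gene6277 and gene3464 lies below replicates 1 and 2.

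Across the called genes, replicate 3 of the agitated antioxidant group differed from replicates 1 and 2 in both directions. For 34 of the 502 genes it lay on the other side of the mean without antioxidants, whereas replicates 1 and 2 did so for 9 and 6. It showed the smallest rise of the 3 replicates for 217 and the largest for 225 of the 502. For the 451 genes it lay on the other side for 3, and replicates 1 and 2 for 2 and 3. Replicate 3 showed the smallest fall for 130 and the largest for 218 of the 451. Of the 953 genes, 902 were called again without that library, among 1496.

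Among the genes with this minimum of reads that were called for the difference and also in agitated culture, gene6890 and gene6277 rose most. gene6890 stood at 14.3, 5.75 and 4.21 CPM in agitated cultures without antioxidants and at 46.5, 29.7 and 204 CPM with them. It stood at 81.1, 107 and 93.8 CPM in static cultures without and 84.8, 106 and 91.2 CPM with antioxidants. The static groups overlapped, and the agitated values with antioxidants lay on both sides of the static ones. Its difference of -3.51 (SE 0.89, edgeR adjusted p = 0.0349) was -2.20 without agitated antioxidant replicate 3 (edgeR adjusted p = 0.034) and -4.21 without agitated replicate 1 lacking antioxidants (edgeR adjusted p = 0.0348). The call was lost without any of the static libraries except replicate 1 lacking antioxidants, and without agitated replicate 2 or 3 lacking antioxidants (edgeR adjusted p between 0.063 and 0.0891). It was also lost with each of the 3 forms of replicate block, at an edgeR adjusted p of 0.0588 in the static libraries only, 0.0715 over all 12 libraries and 0.0862 within each state, and at 0.0653 with scaling by library totals alone. The largest falls among them were those of gene3220 and gene5500. gene5500 stood at 257, 279.8 and 288 CPM without and 37.0, 26.3 and 26.1 CPM with antioxidants in agitated culture. In static culture it stood at 282, 207 and 183 CPM without and 253, 202 and 123 CPM with them. The agitated antioxidant group alone was low, and the static groups overlapped. The difference was 2.99 (SE 0.35, edgeR adjusted p = 0.000943).

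The smallest unadjusted p of all tested genes belonged to gene11495, which was singled out after its values were seen. It stood at 151, 173 and 170.3 CPM in agitated cultures without antioxidants and at 32.9, 25.1 and 29.3 CPM with them. Its static values were 162, 142 and 137 CPM without and 155, 136 and 132 CPM with antioxidants. Of the 4 groups, 3 overlapped at one level and the agitated antioxidant group stood apart below them. The agitated effect was -2.50 and the static effect -0.06, with a difference of 2.44 (SE 0.16, edgeR adjusted p = 1.7e-05).

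A smaller set responded in static culture. Among the genes called for the difference and also in static culture, with the same minimum of reads, gene3033 and gene4544 fell most there. gene3033 stood at 390 (replicate 1), 770.4 and 755 CPM in the static group without antioxidants and at 60.7, 84.0 and 73.9 CPM with them. In agitated culture it stood at 485, 412 and 518 CPM without and 374, 635 and 302 CPM with antioxidants. The agitated groups overlapped and the static antioxidant group alone was low. The static effect was -3.13 and the agitated effect -0.11, with a difference of -3.02 (SE 0.43, edgeR adjusted p = 0.00269). gene4544 stood at 157, 63.4 and 119 CPM in static cultures without and 23.1, 27.4 and 35.1 CPM with antioxidants. All agitated libraries held 2.15 to 3.21 CPM of it, from 32 to 81 reads. Its difference of -1.75 (SE 0.47, edgeR adjusted p = 0.0426) thus set a static fall against a gene that was nearly silent when agitated. The call was lost without any 1 library other than static replicates 1 and 2 without antioxidants and static antioxidant replicate 3 (edgeR adjusted p between 0.0633 and 0.106). It was also lost in limma-voom, with an adjusted p of 0.135 and, with library quality weights, 0.0688.

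Among the genes called for the difference and also in static culture, again with that minimum of reads, gene3192 and gene752 rose most there. gene3192 stood at 101, 103 and 119 CPM in the static group without antioxidants and at 164, 207 and 209 CPM with them. Its agitated values were 175, 218 and 205 CPM without and 207, 223 and 169 CPM with antioxidants. Static cultures without antioxidants were thus the low group, and the other 3 overlapped. The difference was 0.85 (SE 0.19, edgeR adjusted p = 0.0182), and its adjusted p was 0.051, 0.0505 and 0.0524 in edgeR without agitated replicate 2, agitated replicate 3 or static replicate 2 lacking antioxidants.

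gene752 belonged to the 4 genes lowered by antioxidants in agitated culture and raised by them in static culture. The other 3 were gene753, gene754 and gene4377, named here because the class was small. gene752, gene753 and gene754 carry consecutive numbers. gene752 stood at 119, 109.8 and 112 CPM in agitated cultures without and 80.9, 81.9 and 78.2 CPM with antioxidants, and at 34.1, 33.6 and 33.3 CPM in static cultures without and 53.7, 54.9 and 72.2 CPM with them. gene753 stood at 137, 139.9 and 139.7 CPM and at 87.7, 98.1 and 83.9 CPM when agitated, and at 45.9, 45.2 and 42.1 CPM and 71.5, 65.1 and 78.7 CPM when static, without and with antioxidants respectively. The replicates did not overlap within either state for these 4 genes. Antioxidants thus brought the agitated and static levels of gene752 and gene753 closer together from both sides. The differences were 1.34 (SE 0.14, edgeR adjusted p = 0.000424) for gene752, 1.32 (SE 0.12, edgeR adjusted p = 0.000119) for gene753 and 0.86 (SE 0.10, edgeR adjusted p = 0.000644) for gene754. gene4377 went the other way in its levels, from 80.8 ± 5.18 to 68.2 ± 3.96 CPM when agitated and from 94.1 ± 2.20 to 122 ± 2.85 CPM when static (mean ± SD, n = 3), so its static and agitated levels moved apart. Its difference was 0.61 (SE 0.10, edgeR adjusted p = 0.00425).

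The 9 genes that rose when agitated and fell when static had agitated effects of 0.50 to 2.51 and static effects of -1.92 to -0.67 on the log2 scale, with differences of -4.43 to -1.63. Their medians were 69.3 CPM without and 136 CPM with antioxidants when agitated, and 80.2 and 27.9 CPM when static. Gene by gene, static culture was called higher than agitated culture without antioxidants for 6 of the 9, with gaps of -0.11 to 1.42 over the 9. With antioxidants it was called lower for all 9, with gaps of -3.60 to -0.57. The values 2.51, -1.92, -4.43 and -3.60 all belonged to the same gene, whose mean log2 CPM of 2.5 was under the minimum for named genes. The 13 genes lowered in static culture alone had static effects of -3.13 to -0.62, and their agitated effects ran from -0.29 to 0.99. The 0.99 came from a gene at means of 1.1 CPM without and 2.17 CPM with antioxidants when agitated. Where both effects went the same way, the agitated one was the larger in each of the 4 genes, at -1.94 and -1.20 against -0.79 and -0.67 for the 2 lowered genes and at 1.05 to 1.93 against 0.54 to 0.79 for the 2 raised ones.

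**Figure D4:**
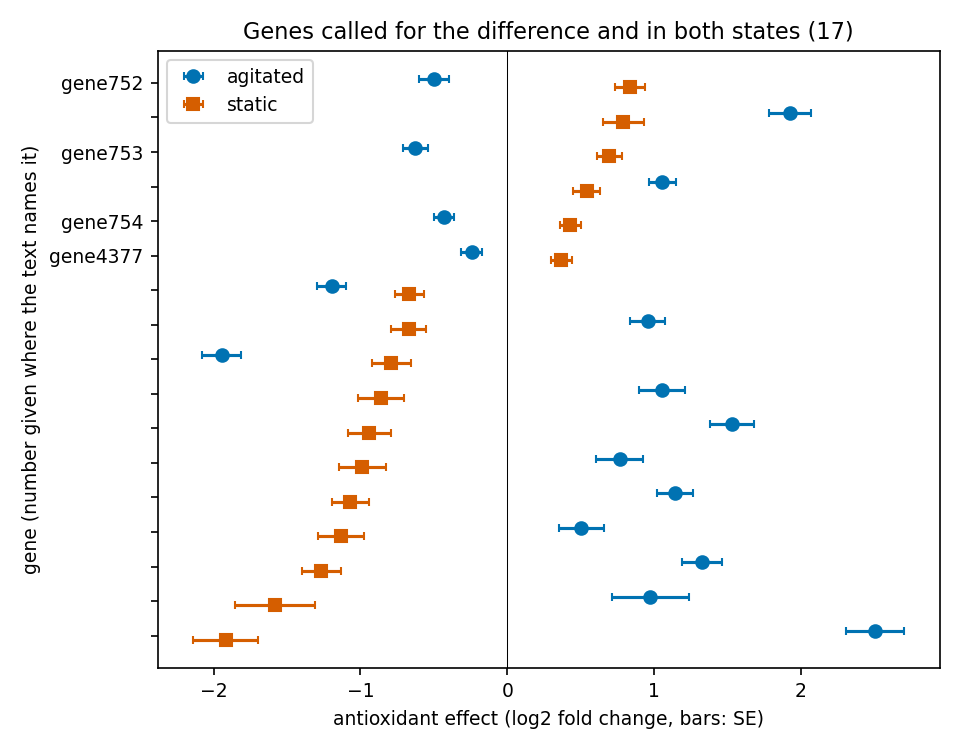
Antioxidant effects in agitated (circles) and static culture (squares), as log2 fold changes with their SE, of the 17 genes called for the difference and in both states. The 2 effects lie on opposite sides of 0 for 13 genes and on the same side for 4, where the agitated effect is the larger.

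Genes with neighbouring numbers were often called together. Of the 451 genes, 102 (22.6%) had a gene of an adjacent number in the same set, whereas 7.92% of all tested genes had an adjacent number in it. Of the 502 genes it was 70 (13.9%), against 8.83%. The files do not say that numbers follow the order along a chromosome, and adjacent genes could share reads where they overlap. The longest stretches were 4 numbers long, one in each direction, and were singled out after the values were seen. From gene8635 to gene8638 all 4 genes rose in agitated culture, by 0.80 to 2.43 on the log2 scale, and the static effects were 0.02 to 0.16. The largest rise was that of gene8636, whose mean log2 CPM of 1.97 was under the minimum for named genes. gene8637, for example, stood at 249, 241 and 233 CPM without and 548, 597 and 464 CPM with antioxidants when agitated, and at 207, 261 and 247 CPM without and 233, 273 and 241 CPM with antioxidants when static. Its agitated groups did not overlap and its static groups did. Its difference was -1.09 (SE 0.16, edgeR adjusted p = 0.00293). From gene7678 to gene7681 all 4 genes fell in agitated culture, by -0.36 to -2.07. Their static effects were -0.71 to 0.41, of both signs, and none was called (edgeR adjusted p of 0.149 or more). Of these, gene7679 stood at 408, 399 and 416 CPM without and 162, 117 and 172 CPM with antioxidants when agitated, and at 167, 204 and 173 CPM without and 142, 151 and 153 CPM with them when static. The replicates of gene7679 overlapped in neither state. The difference was 1.15 (SE 0.18, edgeR adjusted p = 0.00353). The calls of gene8638 and gene7680 (edgeR adjusted p = 0.0367 and 0.0471) were each lost without any of 9 single libraries, with adjusted p values up to 0.104 and 0.119, and that of gene7678 (edgeR adjusted p = 0.0178) without static replicate 2 lacking antioxidants (edgeR adjusted p = 0.0529). With scaling by library totals alone the calls of gene8638 and gene7680 were lost too (edgeR adjusted p = 0.0669 and 0.103). Upper-quartile scaling also ended the call of gene7680.

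**Figure D5:**
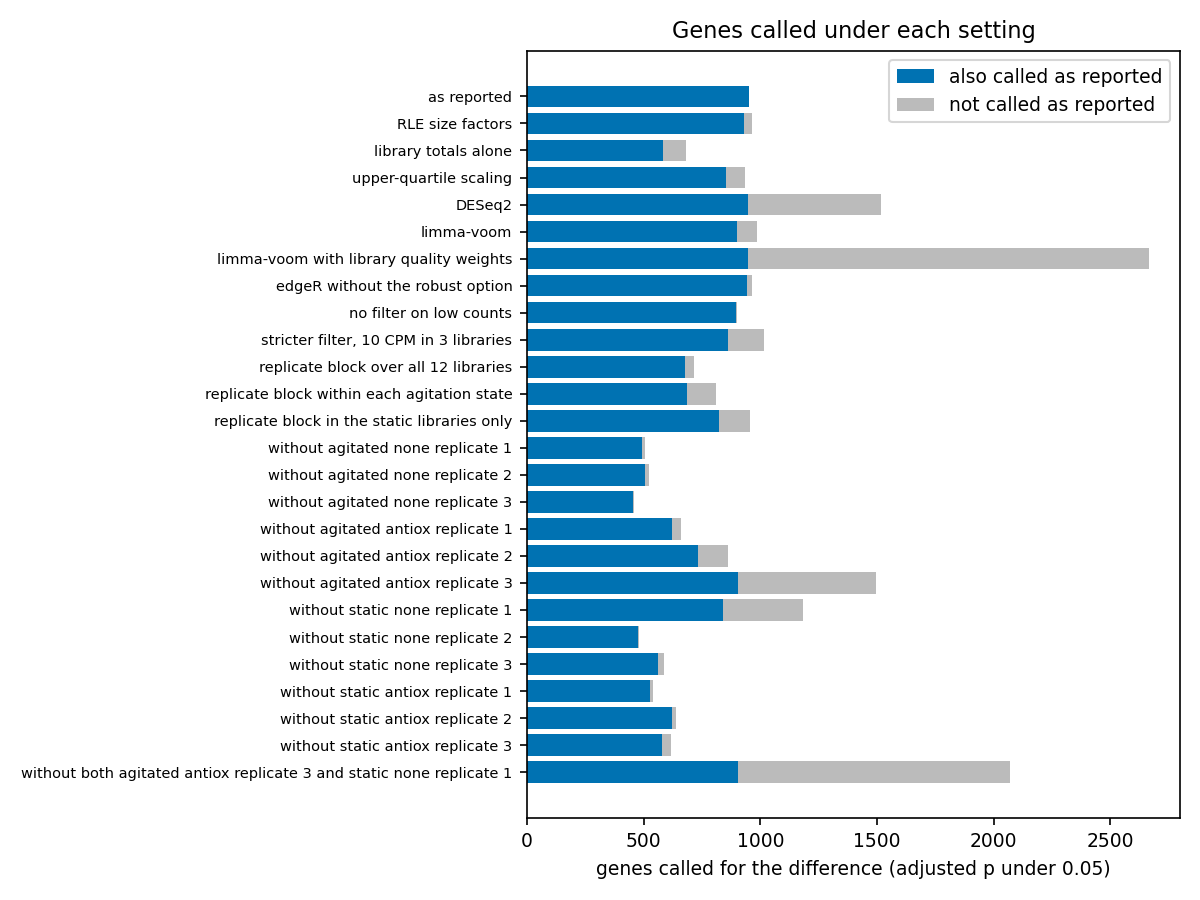
Number of genes called for the difference at an adjusted p under 0.05 under each setting, split into genes also called as reported (blue) and not (grey). The count runs from 459 without agitated replicate 3 lacking antioxidants to 2664 in limma-voom with library quality weights.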

How the data were processed

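RNA of the 12 G. subvermispora libraries was sequenced after a stranded total RNA preparation, per the labels' protocols. Each library has a deposited table of raw counts of reads by gene number, with no normalization. HTSeq, Bowtie, Bowtie2 and FastQC are the tools listed in the submitters' processing notes. Tool versions were not given in the sources used here, nor were the build, annotation and strand setting. Overlapping genes and near-identical copies are therefore uncertain. HTSeq's 5 summary lines were left out of library sizes and tests; reads of low mapping quality made up 31.4 to 49.1%, reads outside genes 4.61 to 5.32%, unaligned reads 0.551 to 1.39% and ambiguous reads 0.213 to 0.271% of all reads. The 12 T. versicolor libraries are not analysed here.

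Counts were analysed with edgeR 4.0.16 in R 4.3.3: filterByExpr (10529 of 12313 genes kept), TMM scaling, 4 group means over 12 libraries with 8 residual degrees of freedom, and a robust quasi-likelihood fit with Benjamini-Hochberg adjustment over all tested genes of a comparison. SEs were derived from the log2 fold change and the F statistic. Log2 CPM used a prior count of 2. Alternatives used DESeq2 1.42.0 and limma 3.58.1. The test was tried on simulated counts first.

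Named genes are the 2 most positive and 2 most negative differences, and, of genes also called in a state, the 2 largest rises and falls there, all among genes called for the difference whose mean log2 CPM reached 3. The comparison, the rule and the alternatives were chosen with earlier results of these data known. Same-number libraries deviated together across genes in static culture, with correlations of 0.137 to 0.319 between the antioxidant groups, and did not in agitated culture, at -0.05 to 0.09. By the rule that every pair must exceed 0.1, the numbers pair the static libraries only. Static pairs of unlike number gave -0.253 to 0.028. Between the agitated and static antioxidant groups, however, pairs of unlike number gave -0.262 to 0.326. Correlations of this size thus also arose without a shared number, and the static pairing is not established. This pairing comes from the counts, since the meaning of a number is not in the labels. Every pair of replicates differed by more than sampling noise (chi-square per degree of freedom 18.03 to 145.55).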

Additional observations from a re-analysis of the deposited data

Results flagged for a closer look

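The antioxidant effect differed between culture states by the direct test for 953 genes, and each gene named by size is among them. The differences, static minus agitated on the log2 scale, were 5.18 for gene3220, 3.97 for gene522, 2.99 for gene5500, 1.34 for gene752 and 0.85 for gene3192. They were -4.41 for gene6277, -4.19 for gene3464, -3.51 for gene6890, -3.02 for gene3033 and -1.75 for gene4544. Groups of 3 libraries are too small to test a single library for standing apart.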

How the results depend on the processing

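The number of genes called for the difference was 1516 with DESeq2, 2664 with limma-voom and library quality weights, and 2068 without both libraries that stood apart, a choice made after seeing the data. Those settings gave 765, 1271 and 959 genes with a more positive static effect. The more negative ones numbered 1393 with quality weights and 1109 without both libraries, and 259 with library totals alone. At an adjusted p under 0.01 the count was 256, and with a difference of at least 2-fold it was 368. Genes with the larger effect in agitated culture numbered 1334, 2147 and 1598 in the first 3 settings. Those also called in agitated culture numbered 1307, 2229 and 1617, and those also called in static culture 123, 378 and 463. The agitated count was 4191 with quality weights and 2966 without both libraries, and the static counts were 248, 756 and 894. With the replicate block over all 12 libraries 714 genes were called for the difference (679 of them shared with the 953), 28 in static culture and 16 in both. The block within each state gave 809, of which 687 were shared with the 953. The block in static libraries only gave 954, of which 823 were shared, and 90 in static culture. All 3 block forms ended the call of gene6890, the blocks over all libraries and within each state those of gene4544 and gene8638, and the block within each state that of gene3464. Leaving out each library in turn gave 459 to 1496 genes for the difference, 230 to 669 more positive, 229 to 827 more negative, 1436 to 2565 in agitated and 10 to 244 in static culture. It gave 421 to 1327 genes with the larger agitated effect, 416 to 1303 also called in agitated and 8 to 142 also called in static culture. The causes were not tested. Of 549 refits of single named genes, 496 kept the call and 53 lost it, and none changed sign. 423 of the 953 genes were called in all 12 settings with other scalings, tools, filters or blocks. The stricter filter among them, 10 CPM in 3 libraries, left 7763 genes tested, so called genes below it could not be among the 423. Depth limits the genes with fewest reads, where the median called difference was 1.41.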
